A study of Mus musculus with 12 samples.

Results

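The 10 genes studied belong to hepatic insulin signalling and include the receptor of the opposing hormone glucagon. They are Insr, Irs1, Irs2, Pik3r1, Akt1, Akt2, Foxo1, Foxo3, Igfbp1 and Gcgr, chosen by gene symbol, and all 10 were found among the 12284 named genes of the table. The 12 libraries of polyadenylated liver RNA came from Acly f/f; Acss2 f/f mice, and floxed alleles of these 2 genes were thus common to both groups. At 6 to 8 weeks of age, 6 controls (WT) received AAV8-TBG-GFP and 6 double knockouts (DKO) received AAV8-TBG-Cre, a virus whose TBG promoter limits Cre to hepatocytes; other liver cells keep both genes. After 1 week all mice were put on a Western diet, which they ate for 6 weeks. WT livers thus carried the virus, GFP and the diet as well, and effects of Cre or GFP cannot be told apart from loss of the 2 enzymes. The sources used here do not state whether the mice were fed or fasted when the liver was taken.

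Insulin binds its receptor INSR, a tyrosine kinase, which phosphorylates the docking proteins IRS1 and IRS2. These recruit PI3-kinase through its regulatory subunit, the lipid product recruits AKT to the membrane, and AKT phosphorylates FOXO factors, which then leave the nucleus. In liver, FOXO1 induces genes of glucose production as well as Igfbp1 and Irs2, so insulin lowers the expression of both, while glucagon acts through GCGR and cyclic AMP in the opposite direction.

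Igfbp1 is the best known hepatic target of this switch, and the 150 bases before its start site are shown because they hold the insulin response element through which FOXO1 acts. The same stretch of Irs1 and Irs2 is shown for comparison, since these were the other genes of the set with the same letters in this region. The sequences are RefSeq's on GRCm38.p6, read 5′ to 3′ on the gene's strand, and capitals mark CAAAACA or its reverse complement TGTTTTG. Igfbp1 lies at chr11:7197637-7197786 on the plus strand, Irs2 at chr8:11008930-11009079 and Irs1 at chr1:82291440-82291589, both on the minus strand.
Igfbp1: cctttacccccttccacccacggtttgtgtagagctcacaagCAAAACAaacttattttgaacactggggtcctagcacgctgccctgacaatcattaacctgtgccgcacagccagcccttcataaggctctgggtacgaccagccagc
Irs2: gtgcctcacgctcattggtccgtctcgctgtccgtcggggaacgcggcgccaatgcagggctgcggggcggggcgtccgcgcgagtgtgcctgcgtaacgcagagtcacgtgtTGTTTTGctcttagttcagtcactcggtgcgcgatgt
Irs1: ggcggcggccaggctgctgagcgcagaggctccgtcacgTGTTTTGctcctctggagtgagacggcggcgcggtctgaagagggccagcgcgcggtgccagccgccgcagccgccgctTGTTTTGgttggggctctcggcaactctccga
The match in Igfbp1 begins at base -108 from the start site, that in Irs2 at -37, and those in Irs1 at -111 and -32. Over the full window of 250 bases before to 50 bases after a start, searched on both strands, 3 of the 14 windows of 9 genes held these letters, against 6.28% of all 32851 windows. GTAAACA, the consensus site of FOXO factors, was found in 1 window, of Akt1 (3.65% of all windows), and the cyclic AMP response element TGACGTCA in 0 (1.79%). No promoter of Insr was matched. A match is a run of letters and says nothing of binding in these livers.

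None of the 10 genes passed the test between DKO and WT (0 of 10 at an adjusted p below 0.05 in limma, where 1.74% of all genes passed, 0.619% as higher and 1.12% as lower in DKO). Gcgr alone had an unadjusted limma p below 0.05 (1 of 10, against 16.4% of all genes), and in 0 of 10 were the 6 DKO values separated from the 6 WT values (2.17% of all genes). Of the 10 genes 7 were lower in DKO, with a median log2 fold change of -0.12, where the median over all genes was 0.00414 and 49.2% were lower. The size of these 7 differences depended on the normalization. After quantile normalization they were -0.08 for Insr and Akt2, -0.004 for Foxo3, -0.002 for Pik3r1, -0.04 for Gcgr, -0.14 for Foxo1 and -0.17 for Irs1. Subtracting library medians instead made all 7 larger. The 95% interval of the change lay within 1.5-fold in either direction for 9 of the 10 genes, the exception being Igfbp1. The deleted genes themselves were lower in DKO, at 17.6% of WT for Acly (limma adjusted p = 0.0165), with a log2 fold change of -2.18 for Acss2 (adjusted p = 0.00571). DKO 1, at 6.60 log2 CPM of Acly, lay inside the WT range of that gene. It was also the highest DKO library for Acss2, at 5.74 log2 CPM, below the lowest WT value of 6.12.

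Levels are in log2 CPM, the log2 of counts scaled to the size of the library, and are not compared between genes because CPM is not corrected for transcript length. The back-transformed values of a library summed to between 906047 and 1088119 CPM, and the number of reads behind them is unknown. Hepatocyte markers identified the tissue as labelled: all 12 listed were measured and together made up 77882 to 92669 CPM in WT and 65602 to 97759 CPM in DKO, while 0 of 8 pancreas genes were among the tested genes. Hepatocyte markers were lower in DKO for 8 of 12 (median log2 fold change -0.16), and 1 fell, Asgr1 (-0.35, limma adjusted p = 0.0452). Endothelial markers were higher in 10 of 10 (median 0.19) and stellate markers in 8 of 10 (median 0.28), with 0 called in either list. Macrophage markers were higher in 11 of 11 measured (median 0.69), and 2 rose. Of 5 measured cholangiocyte markers 4 were higher and 1 rose, Spp1 (0.88, limma adjusted p = 0.0213). All 3 measured adipocyte markers were lower and 1 fell, Cfd (-4.12, limma adjusted p = 0.0364). Their part in the 7 of 10 insulin signalling genes that were lower was not tested. In whole liver, fewer cells of a type and less RNA per cell cannot be told apart. No label ties a library to a mouse of its own, and p-values therefore measure the spread between libraries. Means are given ± SD over n = 6 libraries a group.

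**Figure D1:**
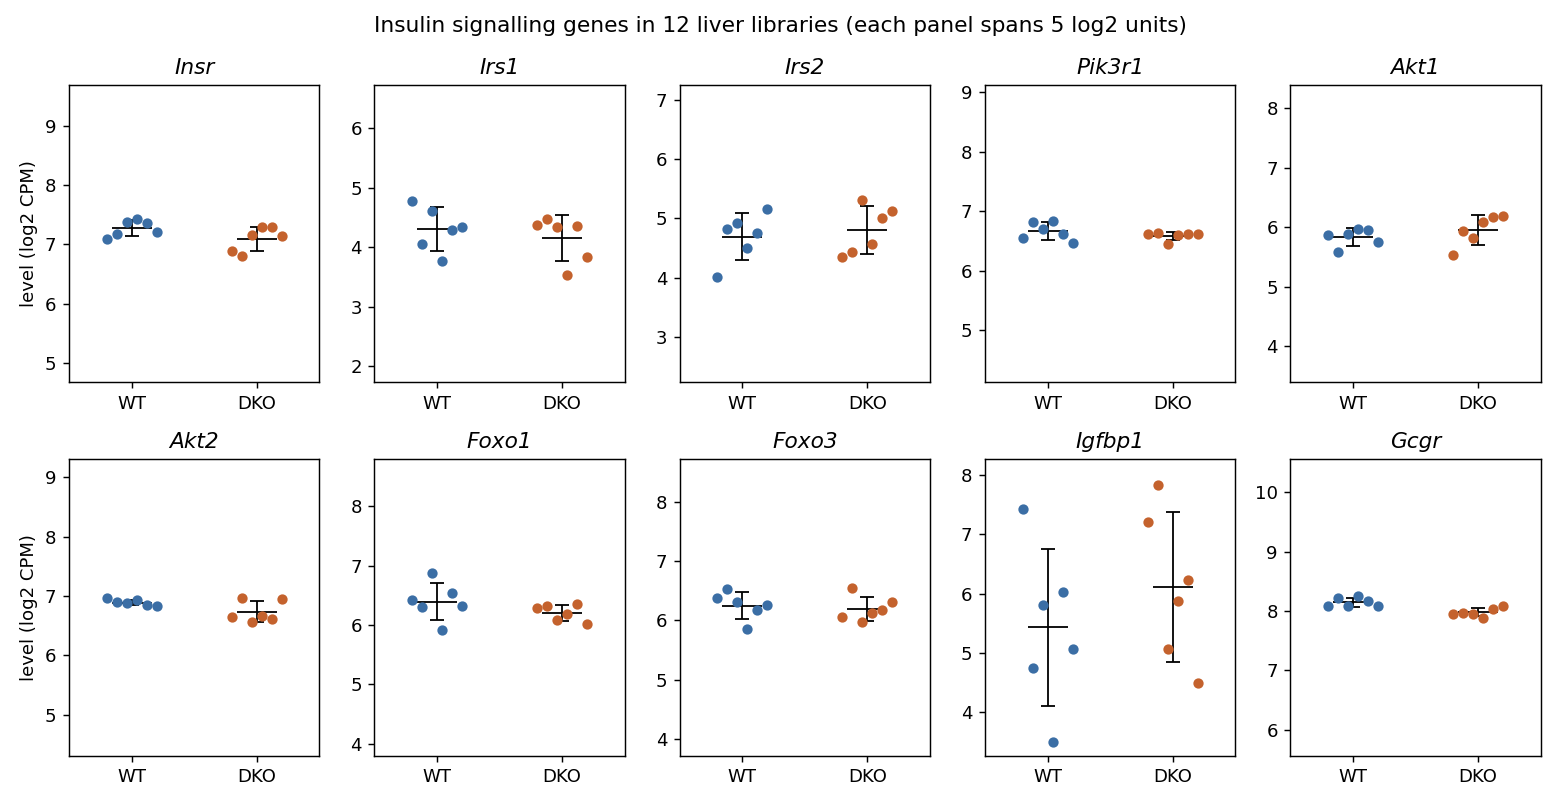
Level (log2 CPM) of each gene in the 6 WT (blue) and 6 DKO (orange) libraries, with mean and SD as bars; every panel has the same height in log2 units. The points of Igfbp1 are spread from 3.51 to 7.83, and those of Gcgr from 7.88 to 8.08 in DKO and 8.08 to 8.25 in WT.

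Gcgr, the receptor through which glucagon raises hepatic glucose output, came closest to a difference. Its level ran from 8.08 over a median of 8.13 to 8.25 log2 CPM in WT, and from 7.88 over 7.96 to 8.08 in DKO. Of the DKO libraries, 5 lay below every WT library, and DKO 6 stood just above the lowest control, WT 6. The mean was 8.15 ± 0.07 in WT and 7.98 ± 0.07 in DKO, so that DKO was at 88.9% of WT with a 95% interval of 81.1% to 97.4%. The log2 fold change was -0.17 (SE 0.06), with a limma adjusted p of 0.177 and an exact permutation p of 0.00433, not adjusted for the number of genes; 6 of 6 DKO libraries were below the WT mean. Gcgr varied less between libraries of one group than almost any other gene, with a within-group SD of 0.07 log2 CPM that exceeded those of only 0.423% of all genes. The difference was smaller, -0.04, after quantile normalization, and lay between -0.19 and -0.15 in the other alternatives.

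Insr, the insulin receptor, ranged from 7.10 to 7.42 log2 CPM in WT with a median of 7.28, and from 6.81 to 7.29 in DKO with a median of 7.15. The lowest values were those of DKO 2 and DKO 1, while the other 4 DKO libraries lay within the WT range. DKO was at 88.5% of WT (95% interval 76.5% to 102%), a log2 fold change of -0.18 (SE 0.10, limma adjusted p = 0.391, exact permutation p = 0.108). The difference of the Insr and Gcgr levels within a library was -0.88 ± 0.12 in WT against -0.88 ± 0.21 in DKO (exact permutation p = 0.946, also after adjustment over 4 such pairs). It follows the balance of the receptors' mRNAs, and receptor protein was not measured.

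Irs1 and Irs2, the docking proteins of the receptor, overlapped widely between the groups. Irs1 ranged from 3.77 over a median of 4.32 to 4.78 log2 CPM in WT and from 3.53 over 4.36 to 4.48 in DKO. Its highest value was in WT 1 and its lowest in DKO 4. At 89.8% of WT, its 95% interval reached from 67.2% to 120% (limma adjusted p = 0.750, exact permutation p = 0.496). Irs2, the docking protein that insulin itself represses in liver, ranged from 4.01 over a median of 4.78 to 5.16 log2 CPM in WT and from 4.34 over 4.79 to 5.31 in DKO. The medians of the groups were nearly equal, and 5 of 6 DKO libraries lay within the WT range. Irs2 was at 107.6% of WT (95% interval 79.3% to 146%, limma adjusted p = 0.851, exact permutation p = 0.649), and its difference turned to -0.03 without WT 1. The level of Irs2 minus that of Irs1 was 0.38 ± 0.60 in WT against 0.65 ± 0.57 in DKO (exact permutation p = 0.470, adjusted p = 0.626). In this balance WT 1, at -0.77, stood apart from the other 5 WT libraries, which lay above 0.

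Pik3r1 encodes p85α, the regulatory subunit that brings PI3-kinase to the IRS proteins. Its values were 6.47 to 6.84 log2 CPM in WT with a median of 6.66, and 6.44 to 6.63 in DKO with a median of 6.61. All 6 DKO libraries were below the WT mean, but 5 of them lay within the WT range. The level in DKO was 94.6% of WT (95% interval 84.4% to 106%, limma adjusted p = 0.662, exact permutation p = 0.247).

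Akt1 and Akt2 encode the kinases that carry the signal on, of which AKT2 is the main form in insulin's control of hepatic metabolism. Akt2 lay in a narrow band in WT, from 6.83 over a median of 6.88 to 6.96 log2 CPM, and from 6.55 over 6.66 to 6.96 in DKO. Below every control were 4 DKO libraries, while DKO 6 lay within the WT range and DKO 2 marginally above it. DKO was at 89.7% of WT (95% interval 79.5% to 101%; log2 fold change -0.16, SE 0.08, limma adjusted p = 0.355, exact permutation p = 0.0649). Akt1 ranged from 5.58 over a median of 5.88 to 5.96 log2 CPM in WT and from 5.53 over 6.02 to 6.19 in DKO. Here 3 DKO libraries exceeded every control, and DKO 1 was the lowest of all. Akt1 in DKO was at 109% of WT (95% interval 91.8% to 129%, limma adjusted p = 0.652, exact permutation p = 0.325).

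Because the differences of Akt1 and Akt2 had opposite signs, their balance within a library differed more than either gene. The level of Akt2 minus that of Akt1 ranged from 0.88 to 1.32 in WT with a median of 1.04, and from 0.45 to 1.12 in DKO with a median of 0.74. In 4 DKO libraries the value was below every WT value, and in DKO 1 and DKO 2 it was not. Means were 1.06 ± 0.15 in WT and 0.77 ± 0.26 in DKO, a difference of -0.28 with an exact permutation p of 0.0498, which was 0.199 after adjustment over the 4 pairs. The difference therefore did not pass; the adjusted p ranged from 0.0606 without DKO 1 to 0.398 without DKO 5.

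**Figure D2:**
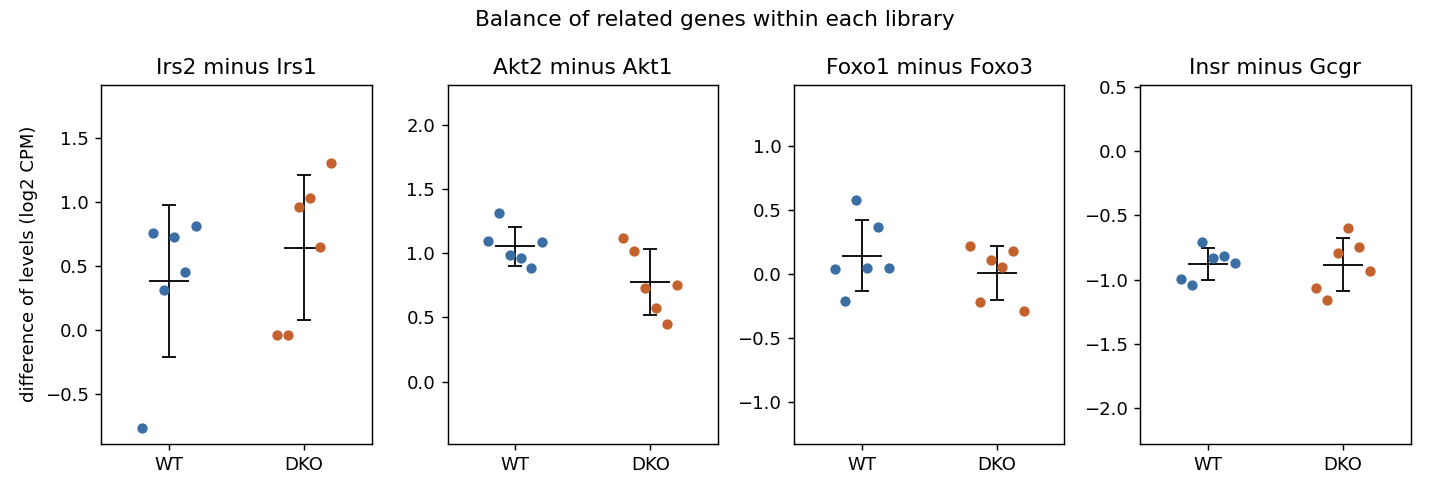
Difference between the log2 CPM of related genes within each library, for WT (blue) and DKO (orange), with mean and SD; panels have the same height. For Akt2 minus Akt1 the DKO points reach down to 0.45 where the lowest WT point is 0.88, and for Insr minus Gcgr the group means are both -0.88.

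Foxo1 and Foxo3 encode the transcription factors that AKT keeps out of the nucleus. Foxo1 ranged from 5.91 over a median of 6.37 to 6.88 log2 CPM in WT and from 6.02 over 6.23 to 6.35 in DKO. All 6 DKO libraries were below the WT mean and within the WT range, whose ends were WT 4 and WT 3. Foxo1 in DKO was at 87.7% of WT (95% interval 72.2% to 106%; log2 fold change -0.19, SE 0.13, limma adjusted p = 0.508, exact permutation p = 0.219). Foxo3 ranged from 5.86 over a median of 6.28 to 6.52 in WT and from 5.97 over 6.15 to 6.54 log2 CPM in DKO. DKO 2 was the highest and WT 4 the lowest of all, and the groups overlapped throughout. Its level in DKO was 96.4% of WT (95% interval 81.0% to 115%, limma adjusted p = 0.871, exact permutation p = 0.675). The level of Foxo1 minus that of Foxo3 was 0.15 ± 0.28 in WT against 0.01 ± 0.21 in DKO (exact permutation p = 0.361, adjusted p = 0.626).

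**Figure D3:**
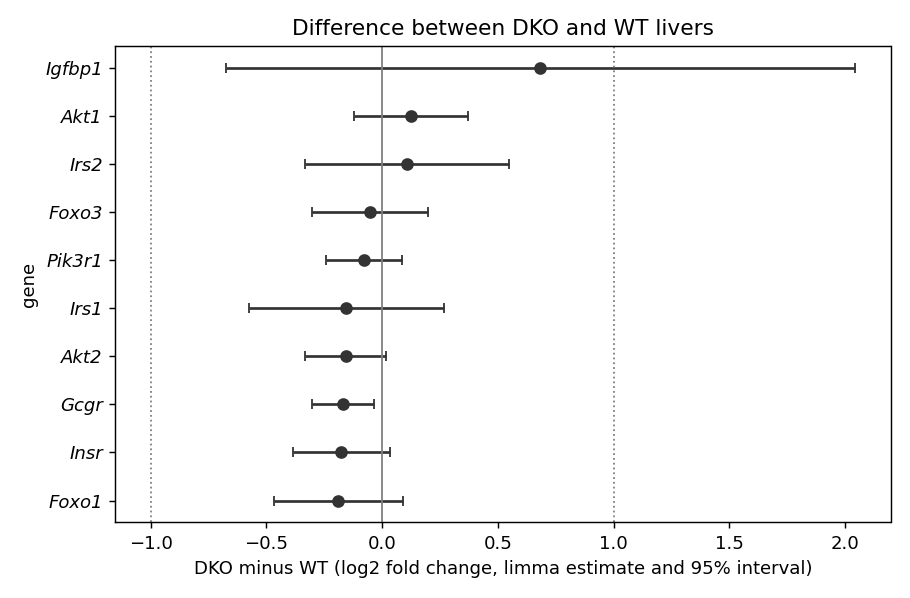
Log2 fold change of DKO against WT for each gene (points) with its 95% interval from limma (bars, n = 6 each); the dotted lines mark 2-fold lower and higher. Igfbp1 has the interval from -0.68 to 2.04, and the intervals of the other genes stay inside the dotted lines.

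Igfbp1 encodes a secreted IGF-binding protein whose transcription insulin switches off. It varied far more than the other genes of the set, within both groups. In WT it was 7.43 log2 CPM in WT 1, 6.03 in WT 5, 5.80 in WT 3, 5.07 in WT 6, 4.74 in WT 2 and 3.51 in WT 4. In DKO it was 7.83 in DKO 2, 7.20 in DKO 1, 6.24 in DKO 5, 5.87 in DKO 4, 5.06 in DKO 3 and 4.49 in DKO 6. High and low libraries were found in both groups, and the highest stood 19.9-fold above the lowest, compared with at most 2.45-fold for any of the other 9 genes (Irs2). The within-group SD of 1.29 log2 CPM was larger than or equal to that of 97.6% of all genes. Means were 5.43 ± 1.33 in WT and 6.11 ± 1.26 in DKO, 160.6% of WT with a 95% interval of 62.6% to 412%. With this spread the log2 fold change of 0.68 (SE 0.63) did not pass (limma adjusted p = 0.651, exact permutation p = 0.385), and a change of 2-fold could have been missed. It was 0.30 without WT 4 and 1.08 without WT 1.

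The 3 libraries with the most Igfbp1 had the least Irs2 and Insr. DKO 2, WT 1 and DKO 1 held the 3 highest values of Igfbp1 and, in Irs2, the 3 lowest of the 12 libraries (4.44, 4.01 and 4.34 log2 CPM). They also held the 3 lowest values of Insr (6.81, 7.10 and 6.88 log2 CPM). Taken as deviations from the group means, Irs2 and Igfbp1 were inversely related over the 12 libraries (Pearson r = -0.62, permutation p = 0.0456; Spearman rho = -0.64, permutation p = 0.0373). Adjusted over the 3 relations tested the p were 0.137 and 0.112, so this relation did not pass; the other pairs of the 10 genes were computed but not tested. Within WT r was -0.42 (exact permutation p = 0.404) and within DKO -0.83 (exact permutation p = 0.0528; n = 6 each). Without WT 1 and DKO 3, whose Irs2 lay farthest from the median, r was -0.33. It was -0.45 without WT 1 alone and -0.58 without DKO 3 alone. Leaving out the ends of a range can itself lower r, so these values do not settle which libraries the relation rested on. Without WT 4 r was -0.84 (permutation p = 0.0120 after adjustment).

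Of all 45 pairs of the 10 genes, 4 had a stronger within-group correlation over the same 12 libraries, given here without a test. Irs1 with Igfbp1 had r = 0.73, Foxo1 with Igfbp1 0.65, and Insr with Akt1 as well as Irs1 with Foxo1 0.63. The gene of the set that followed Igfbp1 most closely was thus Irs1. The other tested relations were weaker than that of Irs2 and Igfbp1. Insr and Irs2 had r = 0.48 (permutation p = 0.142, adjusted p = 0.213) and rho = 0.34 (permutation p = 0.319, adjusted p = 0.424), with an r of 0.31 in WT against 0.60 in DKO (exact permutation p = 0.568 and 0.257). Without DKO 1 and DKO 2, whose Insr lay farthest from the median, r was 0.07, with the same limit. Irs1 and Irs2 had r = -0.13 (permutation p = 0.705) and rho = -0.27 (permutation p = 0.424), the same after adjustment, with an r of -0.21 in WT against -0.05 in DKO (exact permutation p = 0.696 and 0.893). Without WT 4 and DKO 4 it was -0.54.

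**Figure D4:**
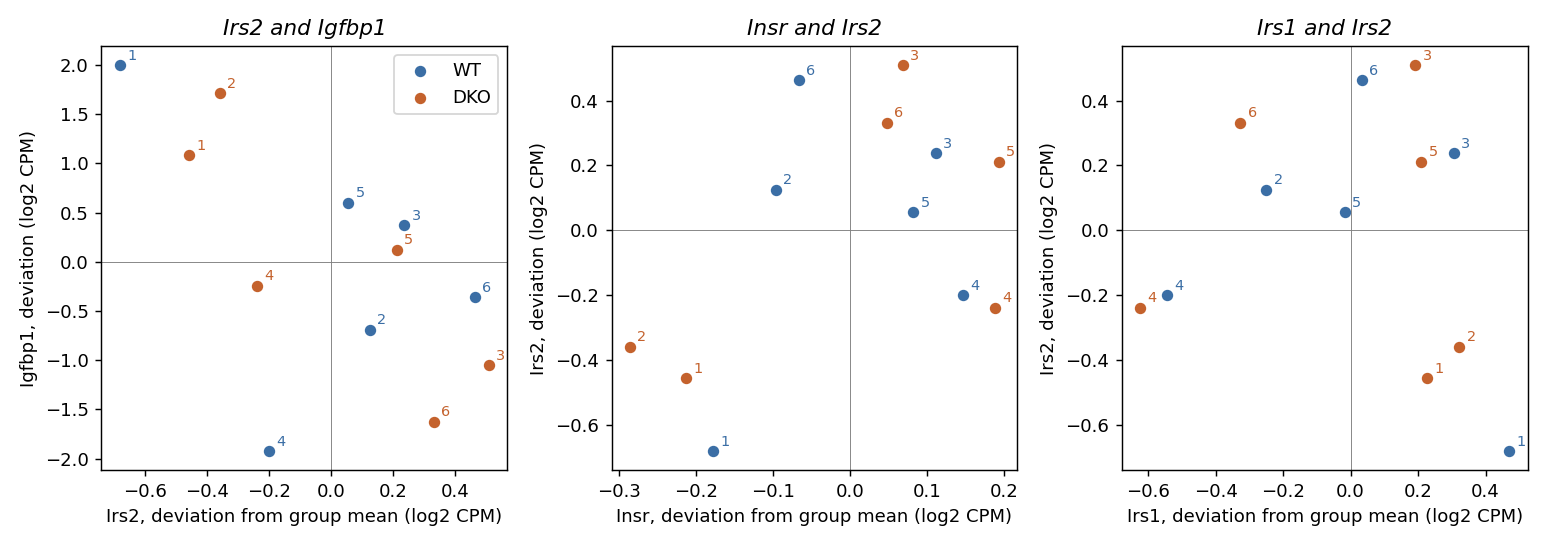
Deviation of each library from its group mean (log2 CPM on both axes) for Irs2 and Igfbp1, Insr and Irs2, and Irs1 and Irs2, with WT in blue, DKO in orange and the library number beside each point. In the panel of Irs2 and Igfbp1, libraries 1 of WT and 1 and 2 of DKO lie at the upper left.

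The genes that followed Igfbp1 most closely across the 12 libraries, as deviations from the group means among 10743 genes, were Tat, the tyrosine aminotransferase (r = 0.98), Proser2 (0.97) and Tsc22d3, which encodes the leucine zipper protein GILZ (0.97). For Irs2 they were Casp9, the initiator caspase of the mitochondrial death pathway (0.97), Slc25a16, a mitochondrial carrier (0.93), and Orc2, a subunit of the origin recognition complex (0.93). For Insr they were Pdxk, pyridoxal kinase (0.96), Tmem127 (0.95) and Nceh1, a cholesterol ester hydrolase (0.95). These are the highest of many correlations over the same libraries and are given as a description. None of these 9 genes passed the test between the groups, and their adjusted p in limma ranged from 0.259 (Slc25a16) to 0.980 (Tat). The most inverse relations were of similar strength, with Fzd8 for Igfbp1 (r = -0.97), Klf2 for Irs2 (-0.90) and Tmem41b for Insr (-0.98). These did not pass either. Gpd1, at rank 3 among the inverse relations of Insr (r = -0.96), did pass as lower in DKO (log2 fold change -0.77, limma adjusted p = 0.0144). It was named because it alone passed among the 3 most inverse genes of each of Irs2, Igfbp1 and Insr.

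The rest of the pathway was examined in 9 lists that left out the 10 genes. Together they named 156 genes, of which 148 were measured; 2 rose and 0 fell in DKO, 1.35% of the measured genes against 1.74% of all genes. Their median log2 fold change was 0.01, with 76 higher and 72 lower.

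Among 21 receptor, adaptor and PI3-kinase partners, 9 were higher in DKO, the median log2 fold change was -0.02, and 1 rose. Pik3cd, the PI3-kinase catalytic subunit known mainly from leukocytes, ranged from 1.84 over a median of 2.10 to 2.56 log2 CPM in WT and from 2.35 over 3.17 to 3.56 in DKO. All DKO libraries but DKO 6 were above every control. It rose 1.91-fold (limma adjusted p = 0.0444, SE 0.22 on a log2 fold change of 0.94). Macrophage markers were higher in DKO for 11 of 11 measured and 2 rose, Ccr2 and Lyz2, with a summed level of 304.1 to 583.6 CPM in WT and 421.7 to 684.5 CPM in DKO. Their part in the difference of Pik3cd was not tested. Its call was lost in 10 of 12 fits with a single library left out (adjusted p up to 0.0998). The broadly expressed catalytic subunits Pik3ca and Pik3cb had log2 fold changes of -0.05 and -0.004 (limma adjusted p = 0.926 and 0.994).

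Of 17 further FOXO genes and proteins that modify or move FOXO factors, 9 were higher, the median log2 fold change was 0.02 and 1 rose. Ywhah encodes 14-3-3η, of the family that binds phosphorylated FOXO in the cytosol. It ranged from 5.18 over a median of 5.24 to 5.54 log2 CPM in WT and from 5.50 over 5.61 to 5.80 in DKO. The overlap came from WT 1 and DKO 6. Ywhah rose 1.28-fold (limma adjusted p = 0.0468, SE 0.08 on a log2 fold change of 0.36), and the call was lost in 10 of 12 fits with a single library left out (adjusted p up to 0.106). The other measured 14-3-3 genes had log2 fold changes from -0.11 (Ywhab) to 0.31 (Ywhaz, limma adjusted p = 0.0928), and the difference between them and Ywhah was not tested.

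Genes that FOXO factors are known to induce did not pass in 19 of 19 measured, 10 of them lower and the median log2 fold change at -0.18. Mttp, which loads lipid onto apolipoprotein B, had the smallest p, with 78.1% of WT (limma adjusted p = 0.0844) and 5 DKO libraries below every control. The gluconeogenic genes Pck1 and G6pc had log2 fold changes of -0.25 and -0.27 (SE 0.23 and 0.30, limma adjusted p = 0.654 and 0.710). Genes that insulin is known to induce had a median log2 fold change of 0.20 with 0 of 9 called. In this list Srebf1, the gene of SREBP1, was at 55.0% of WT (95% interval 32.8% to 92.3%, limma adjusted p = 0.230). It passed only in the fit with a block for the replicate number (limma adjusted p = 0.0284).

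The glucagon and cyclic AMP list had 0 of 21 genes called and a median log2 fold change of -0.02. Gnas, the stimulatory G protein that couples GCGR to adenylyl cyclase, was closest. Its level was 8.72 ± 0.11 log2 CPM in WT against 8.42 ± 0.12 in DKO, 81.6% of WT (limma adjusted p = 0.0680, exact permutation p = 0.00649), and it passed only without WT 1 (adjusted p = 0.0408) or DKO 6 (0.0467), while quantile normalization reduced its log2 fold change from -0.29 to -0.13 (adjusted p = 0.452). Gcgr and Gnas were thus both lower in 6 of 6 DKO libraries than the WT mean, without passing.

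Brakes on insulin signalling had 15 of 22 genes higher, a median log2 fold change of 0.07 and 0 called; Inpp4b, a phosphoinositide phosphatase, came closest at 249% of WT (limma adjusted p = 0.0928) from a low level of -0.67 ± 0.38 log2 CPM. Its log2 fold change of 1.32 was 0.69 on the log2(CPM + 1) scale, and it passed without DKO 6 (adjusted p = 0.0255). In the mTOR list 0 of 19 were called, with a median of 0.04; Sgk3, a kinase related to AKT, was at 136.9% of WT (adjusted p = 0.177). In the glycogen list 0 of 12 were called, with a median of -0.07, and Pygl, liver glycogen phosphorylase, was at 80.5% of WT (adjusted p = 0.241). Among 9 measured IGF and IGF-binding genes 0 were called and the median was -0.04; Igfbp3, the main carrier of IGFs in blood, was at 150.8% of WT (adjusted p = 0.0868) and passed without WT 1 (0.0449) or DKO 6 (0.0226). All adjusted p here are limma's over all genes.

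**Figure D5:**
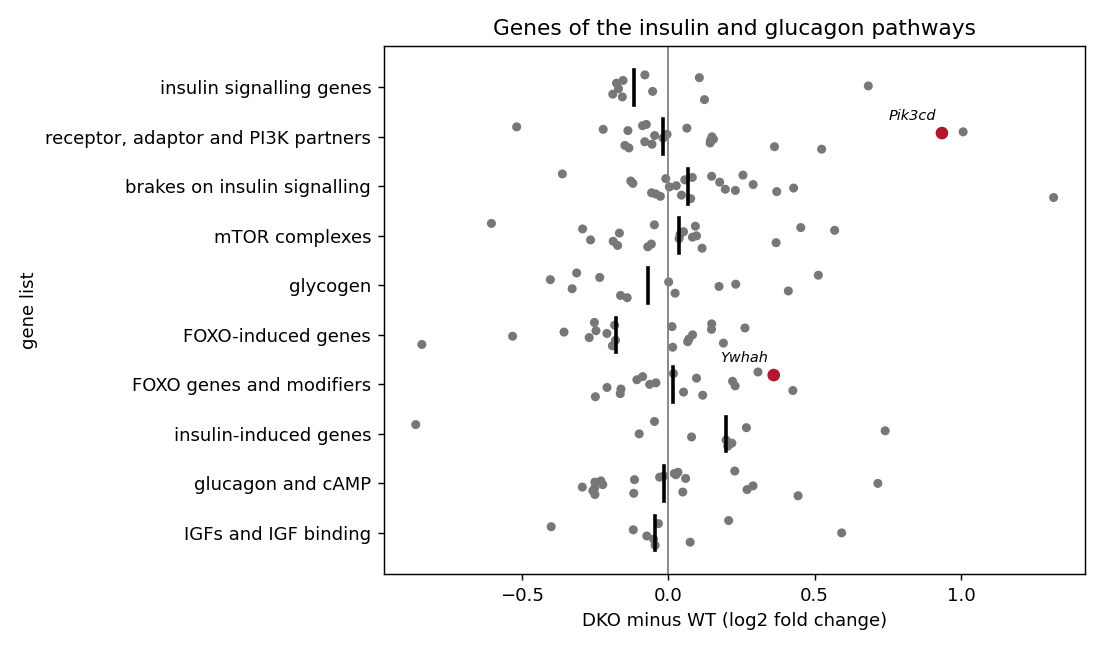
Log2 fold change of DKO against WT for the measured genes of each list (points), with the list's median as a black bar and genes past an adjusted p of 0.05 in red. Pik3cd at 0.94 and Ywhah at 0.36 are the red points, and the medians lie between -0.18 and 0.20.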

How the data were processed

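The authors deposited log2 CPM per gene and library, filtered and normalized between libraries per the name of the table. No source used here gives the filter, the added count or the factors. Tools listed in the submitters' processing notes, without roles, are limma, edgeR and kallisto 0.46.2, with GRCm39 and mm39 as builds. Of 12285 rows, 1 had no gene name and was left out (0.0075% to 0.0148% of a library's CPM). Groups followed the genotype label.

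All 12284 genes were fitted with limma 3.58.1 in R 4.3.3 (mean trend, 2-sided, 6 WT against 6 DKO, no covariate or further filter), with Benjamini-Hochberg adjustment over all of them and a threshold of 0.05; intervals are limma's 95% intervals. In simulated data for this comparison and number of genes, the fit recovered 32.8%, 74.6% and 90.9% of genes changed by 0.5, 1 and 2 on the log2 scale. For single values, exact permutation tests (2-sided) ran over the 924 divisions of the libraries, whose smallest p is 0.00216. Correlations used 100000 permutations within groups. Depth is unknown, so the spread between libraries sets the precision.

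Named genes were the 10 genes, the deleted genes, up to 3 called genes of each list, or the one with the smallest p, and the 3 genes most like Irs2, Igfbp1 and Insr. Others were named after their values were seen. Members and lists were chosen with earlier results of these data known. Alternatives were no mean trend, robust limma, log2(CPM + 1), a filter at a mean of 1 log2 CPM, median subtraction, quantile normalization, a replicate block, each library left out and, added later, both libraries numbered 1 left out.

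Promoter sequences and their coordinates are on GRCm38.p6, not the build of the expression values, which carry no coordinates.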

Additional observations from a re-analysis of the deposited data

Results flagged for a closer look

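Pik3r1 in DKO 3 (6.44 log2 CPM) lay far below the other 5 DKO libraries, which were within 6.61 to 6.63. The level of Irs2 minus that of Irs1 in WT 1 (-0.77) lay far below the other WT libraries. In both the gap to the nearest library exceeded the share of the group's range that Dixon's test allows for 6 values. Over 28 groups of 6 values examined, 1.4 such flags would arise by chance at about 1 in 20, and 2 were found.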

How the results depend on the processing

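None of the 10 genes was called under any of the 20 alternatives, and 198 of their 200 alternative values kept direction; Irs2 turned to -0.0299 without WT 1 (-0.0299 to 0.199 with a library left out) and Foxo3 to 0.000974 without WT 2 (-0.131 to 0.000974). Genes called among all genes numbered 214, and 138 without the mean trend, 109 with quantile normalization, 397 with the replicate block and 92 to 373 with a single library left out. Whether the replicate numbers pair the libraries was not settled. Deviations of same-numbered libraries correlated above 0.1 in 2 of 6 pairs (-0.08 to 0.29), and 4 of 6 WT libraries correlated best with their own number. With the block Srebf1 passed (limma adjusted p = 0.0284).

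The difference of Insr minus Gcgr ranged from -0.0637 to 0.0476 with a library left out, with a positive sign without WT 3, WT 4, WT 5, DKO 1, DKO 2 or DKO 6, and was 0.00641 without both libraries numbered 1. The correlation of Irs1 with Irs2 ranged from -0.31 to 0.18 with a library left out, was 0.18 without WT 1 and 0.34 without both libraries numbered 1; that of Irs2 with Igfbp1 ranged from -0.84 to -0.45 and was -0.34 without both libraries numbered 1 (adjusted p = 0.616), and that of Insr with Irs2 was then 0.16. The cause of these shifts was not tested. Pik3cd also lost its call without the mean trend, with quantile normalization and without both libraries numbered 1 (adjusted p = 0.0589, 0.0710 and 0.0934), and Ywhah without the mean trend and after median subtraction (0.0748 and 0.0651).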

Other observations

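Outside the rule for named genes, and chosen after their values were seen, Pde4b, a phosphodiesterase that breaks down cyclic AMP, stood at a log2 fold change of 0.72 (SE 0.19, limma adjusted p = 0.0753), and Pde3b, the phosphodiesterase that insulin activates, -0.22 (SE 0.09, adjusted p = 0.225). Pik3cg, another leukocyte PI3-kinase subunit, was 1.01 ± 0.35 (SE) higher in log2 units (limma adjusted p = 0.163). Its means were low, -0.56 log2 CPM in WT and 0.44 in DKO, where a log2 difference depends on the added count, which is unknown. Gys2, liver glycogen synthase, had -0.33 (SE 0.15, adjusted p = 0.302). None of the 4 passed.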
